A study of Mus musculus with 6 samples.

Results

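Interferon response genes are the transcripts that cells raise when interferon reaches their receptors. The set described here was chosen by symbol and holds 39 genes out of 39179 gene identifiers in the count files, of which 37607 have a symbol. A row was found for 38 of the 39. Gbp6 has no row under the identifier that the annotation gives it and was not analysed here. Expression was measured by bulk RNA sequencing of polyadenylated RNA from the livers of C57BL/6 mice. From 5 weeks of age all mice were fed for 21 weeks on a diet whose fat supplied 60% of its calories. Stained liver sections of the obese animals then put each in 1 of 2 histological groups. One was isolated steatosis, the storage of fat in hepatocytes. The other was nonalcoholic steatohepatitis (NASH), where inflammation and cell injury accompany the fat. There were 3 libraries in each group, steatosis 1 to 3 and NASH 1 to 3, so the comparison asks how 2 histological classes on 1 diet differ. No lean group was analysed here, and nothing in the labels states that each library came from a different mouse, so a p-value measures the spread between these libraries.

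Interferons act through paired receptors and Janus kinases. Type I interferons, made by most cells that sense viral nucleic acid, lead to a complex, with Stat2 and Irf9 among its subunits, that binds the interferon-stimulated response element (ISRE). Interferon gamma, made by T and NK cells, acts through the gamma-activated site (GAS), and it is the stronger inducer of the immunity-related GTPases (IRG) and the guanylate-binding proteins (GBP). In liver, hepatocytes, Kupffer cells and endothelial cells all respond to interferon.

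Promoters of selected genes, of which Igtp alone passed the test described below, are shown first, because they hold matches to the interferon elements. The genes themselves were grouped by role, not by promoter element. RefSeq promoter windows of build GRCm38.p6, each running from 250 bases before the annotated start to 50 bases after it, were found for 30 of the 39 genes. Iigp1, Gbp6, Usp18, Ifi27, Dhx58, Rtp4, Tap2, Parp9 and Parp14 had no entry. The windows printed are Igtp at chr11:58199306-58199605 (plus strand), Irgm2 at chr11:58214727-58215026 (plus strand), Gbp3 at chr3:142559794-142560093 (plus strand), Ifit3 at chr19:34583279-34583578 (plus strand), Isg15 at chr4:156200769-156201068 (minus strand) and Stat2 at chr10:128270248-128270547 (plus strand). They are written 5′ to 3′ on the strand of the gene, with matches to GAAANNGAAA (the core of the ISRE, searched on both strands) and to TTCNNNGAA (the GAS, which reads the same on both strands) in capitals.
Igtp: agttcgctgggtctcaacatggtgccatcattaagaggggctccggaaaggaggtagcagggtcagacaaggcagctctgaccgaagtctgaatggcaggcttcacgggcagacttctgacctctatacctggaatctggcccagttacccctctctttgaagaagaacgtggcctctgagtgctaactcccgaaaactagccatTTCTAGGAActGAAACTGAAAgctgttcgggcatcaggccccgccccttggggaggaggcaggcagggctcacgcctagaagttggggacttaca
Irgm2: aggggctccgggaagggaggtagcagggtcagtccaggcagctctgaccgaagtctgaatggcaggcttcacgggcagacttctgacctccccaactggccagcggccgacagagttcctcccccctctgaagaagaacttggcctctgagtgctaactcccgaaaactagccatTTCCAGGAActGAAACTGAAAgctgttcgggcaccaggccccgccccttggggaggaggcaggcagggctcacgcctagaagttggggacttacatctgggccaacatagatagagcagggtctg
Gbp3: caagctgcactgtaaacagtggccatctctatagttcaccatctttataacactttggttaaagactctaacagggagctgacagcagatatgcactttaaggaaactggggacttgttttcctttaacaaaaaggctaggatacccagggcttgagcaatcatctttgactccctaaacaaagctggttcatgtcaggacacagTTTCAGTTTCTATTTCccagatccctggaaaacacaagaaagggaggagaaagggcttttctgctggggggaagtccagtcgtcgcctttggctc
Ifit3: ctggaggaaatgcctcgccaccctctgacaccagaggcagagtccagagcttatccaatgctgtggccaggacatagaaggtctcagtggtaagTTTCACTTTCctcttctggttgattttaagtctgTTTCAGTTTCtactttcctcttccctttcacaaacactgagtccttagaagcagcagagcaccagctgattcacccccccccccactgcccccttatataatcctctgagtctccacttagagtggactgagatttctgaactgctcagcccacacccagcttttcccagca
Isg15: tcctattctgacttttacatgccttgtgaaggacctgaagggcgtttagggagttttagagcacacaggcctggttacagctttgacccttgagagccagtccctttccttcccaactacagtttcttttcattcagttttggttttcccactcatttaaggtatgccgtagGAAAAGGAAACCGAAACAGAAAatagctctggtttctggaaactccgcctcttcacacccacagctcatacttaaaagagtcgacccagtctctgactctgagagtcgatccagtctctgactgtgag
Stat2: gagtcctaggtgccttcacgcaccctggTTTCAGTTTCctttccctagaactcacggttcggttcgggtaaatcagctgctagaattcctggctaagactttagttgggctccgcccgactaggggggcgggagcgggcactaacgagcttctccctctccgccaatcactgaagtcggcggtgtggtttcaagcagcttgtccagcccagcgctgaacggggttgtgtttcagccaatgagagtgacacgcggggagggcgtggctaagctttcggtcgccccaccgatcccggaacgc

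A match to the ISRE core lay in the window of 17 of the 30 genes with an entry, or 17 of their 35 windows (48.6%), against 1131 of all 32851 promoter windows (3.44%). A GAS match lay in 10 of the 35 windows (28.6%), against 8.3% of all windows. The ISRE core was present in 3 of 4 IRG genes, 3 of 3 GBP genes, 6 of 12 effectors of type I interferon, 2 of 3 RNA sensor genes, 2 of 6 transcription factors and 1 of 2 antigen presentation genes. Isg15 held 3 overlapping copies between 78 and 57 bases before its start, and Gbp3 held 2 overlapping copies. In Bst2 a GAS match overlapped an ISRE match. These are matches of letters and were not measured as binding.

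Igtp and Irgm2 held the same arrangement, a GAS match followed after 2 bases by an ISRE core. Over the 21 bases of this element the genes shared 20. The difference was T4C, counted from 1 at the first base of the GAS match, with the Igtp base first. The element began 45 bases before the start of Igtp and 75 bases before that of Irgm2. With the windows set in register at the element, 184 of 270 bases were identical (68.1%).

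**Figure D1:**
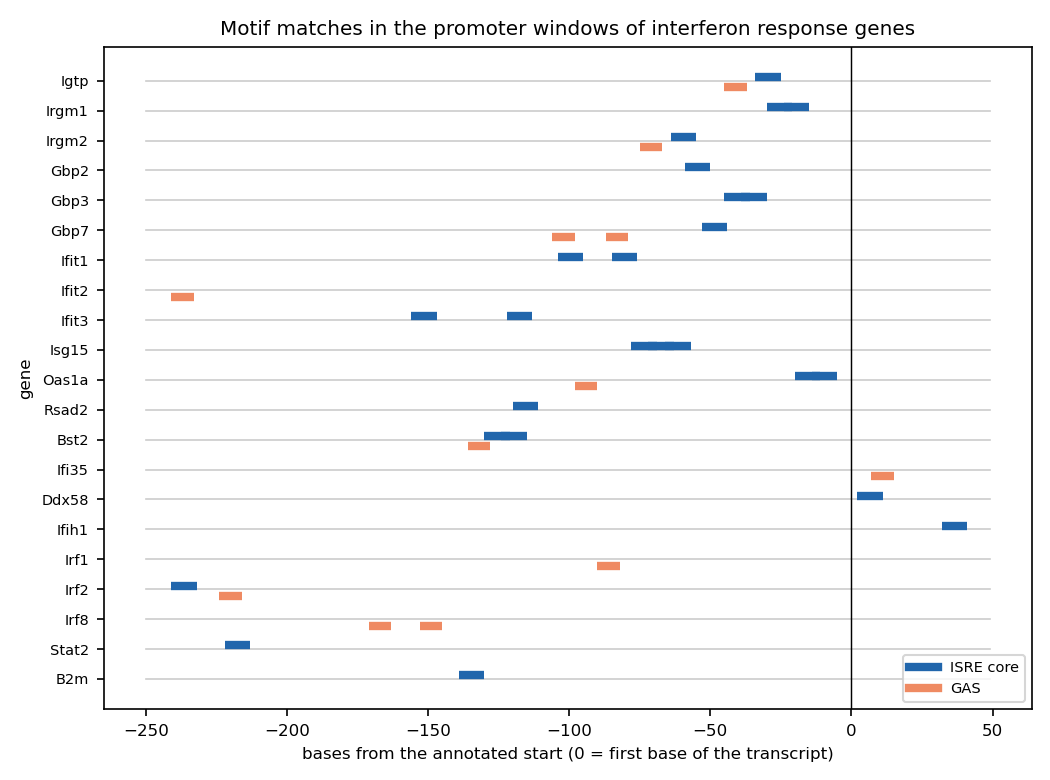
Positions of ISRE core (blue) and GAS (orange) matches in the first promoter window of the 21 genes with a match, in bases from the annotated start (x axis), 1 gene per row. In Igtp and Irgm2 the GAS match lies just before the ISRE core, and in Ddx58 and Ifih1 the ISRE core lies after the start.

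Total counts were 13909238 to 18002095 per library, but 62.0% to 83.9% of them came from mitochondrially encoded genes. For genes outside the mitochondrial genome and 4 loci with rRNA-like sequence, 3378730 to 5149189 counts remained in steatosis and 2185922 to 2719869 in NASH. These loci took 8.96% of steatosis 2 and 22.3% of NASH 3, against 1.06% or less of each other library. Levels are therefore given as CPM, in which each count is divided by a library size scaled by TMM factors. These factors were 0.964 to 1.5 in steatosis (highest in steatosis 3) and 0.793 to 0.914 in NASH (lowest in NASH 3). The remaining depth and the scaling thus both separated the groups, so neither can be fully told apart from the histological group. Hepatocyte markers were abundant, and 5 of them (Alb, Apoa1, Apoa2, Ttr and Fgb) summed to 13500 to 16700 CPM in steatosis and 11500 to 12900 CPM in NASH, which did not overlap. They did not go together: Alb, Apoa2 and Ttr were lower in every NASH library, Apoa1 was higher in every NASH library and Fgb overlapped, and none passed the test. Markers of the cells that make interferon gamma were near 0. The 9 T and NK cell markers summed to 0.668 to 1.2 CPM in steatosis and 0.536 to 1.18 CPM in NASH, Gzma had no count in any library, and Ifng itself had 2 counts in all of steatosis and 1 in all of NASH.

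The interferon response genes that passed the test were lower in NASH, and they were few. Of the 38 genes, all of which passed the filter on low counts, 2 fell (Igtp and Usp18), 0 rose and 36 did not pass edgeR's quasi-likelihood test at a Benjamini-Hochberg adjusted p under 0.05 over all 11375 tested genes. The share that fell, 5.26%, is close to the 3.33% of all tested genes called lower, and 1.49% of all tested genes were called higher. At an unadjusted p under 0.05, 8 genes were lower (21.1%, against 12.9% of all tested genes) and 1, Stat2, was higher (2.63%, against 10.2%). The same 8 genes had every NASH library below every steatosis library (16.2% of all tested genes did), and Stat2 alone had every NASH library above (13.1% of all tested genes did). DESeq2 called 3 members lower, Igtp, Usp18 and Ifit3, beside 4.51% of the genes to which it gave an adjusted p, and 0 higher, beside 2.64%. With libraries scaled to the counts of genes other than the mitochondrial and rRNA-like ones, neither Igtp nor Usp18 passed (adjusted p = 0.0509 and 0.0636 by edgeR). By limma-voom 1 member, Igtp, was lower, beside 3.24% of all tested genes, and 0 were higher, beside 1.4%. The log2 fold change of NASH over steatosis had a median of -0.17 over the 38 genes (-0.25 to -0.03 with 1 library left out) and of 0.01 over all tested genes. It was below -0.5 for 12 members (31.6%, against 17.6%) and above 0.5 for 1 (15.1% of all tested genes). In bulk liver, fewer cells of a type and less RNA per cell cannot be told apart.

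The classes differed in their values. The 8 member GTPases, known as targets of interferon gamma, all had negative log2 fold changes, 8 of 8, with a median of -0.81 (49.4% of all tested genes were negative). Among 17 effectors of type I interferon, 13 were negative, with a median of -0.24, though Ifi44 and Oas1a turned positive under the same scaling to other genes. The 4 RNA sensor genes had a median of 0.20, the 6 transcription factors one of 0.18 and the 3 antigen presentation genes one of -0.07, which became 0.05 with libraries scaled to the counts of other genes. With 1 library left out, the medians ran from -0.27 to -0.09 for the effectors, from 0.09 to 0.33 for the RNA sensors, from 0.02 to 0.37 for the factors and from -0.13 to 0.01 for antigen presentation. The GTPase median ran from -1.06 to -0.45, with -0.48 without steatosis 3 and -0.45 without NASH 2, and Irgm1 and Irgm2 turned positive without steatosis 3 and Iigp1 without NASH 2. Of the 9 further GTPases tested (Gbp4, Gbp8, Gbp9, Gbp11, Tgtp1, Tgtp2, Mx1, Mx2 and Gvin1), 5 were positive and 4 negative, with a median log2 fold change of 0.10, a range from -0.63 for Gbp11 to 1.12 for Mx2, and 0 that passed. Of these, Gbp11 and Mx2 are annotated as polymorphic pseudogenes, not as protein-coding genes. A difference between classes was not tested. Within steatosis the libraries were not alike. Steatosis 1 was the lowest of its group for 28 of the 38 genes, and steatosis 3 the highest for 19. Of all 6 libraries, NASH 2 was the lowest for 12 genes, steatosis 1 for 10 and NASH 3 for 8. Such ranks were not counted over all tested genes, so they may not be particular to these genes.

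**Figure D2:**
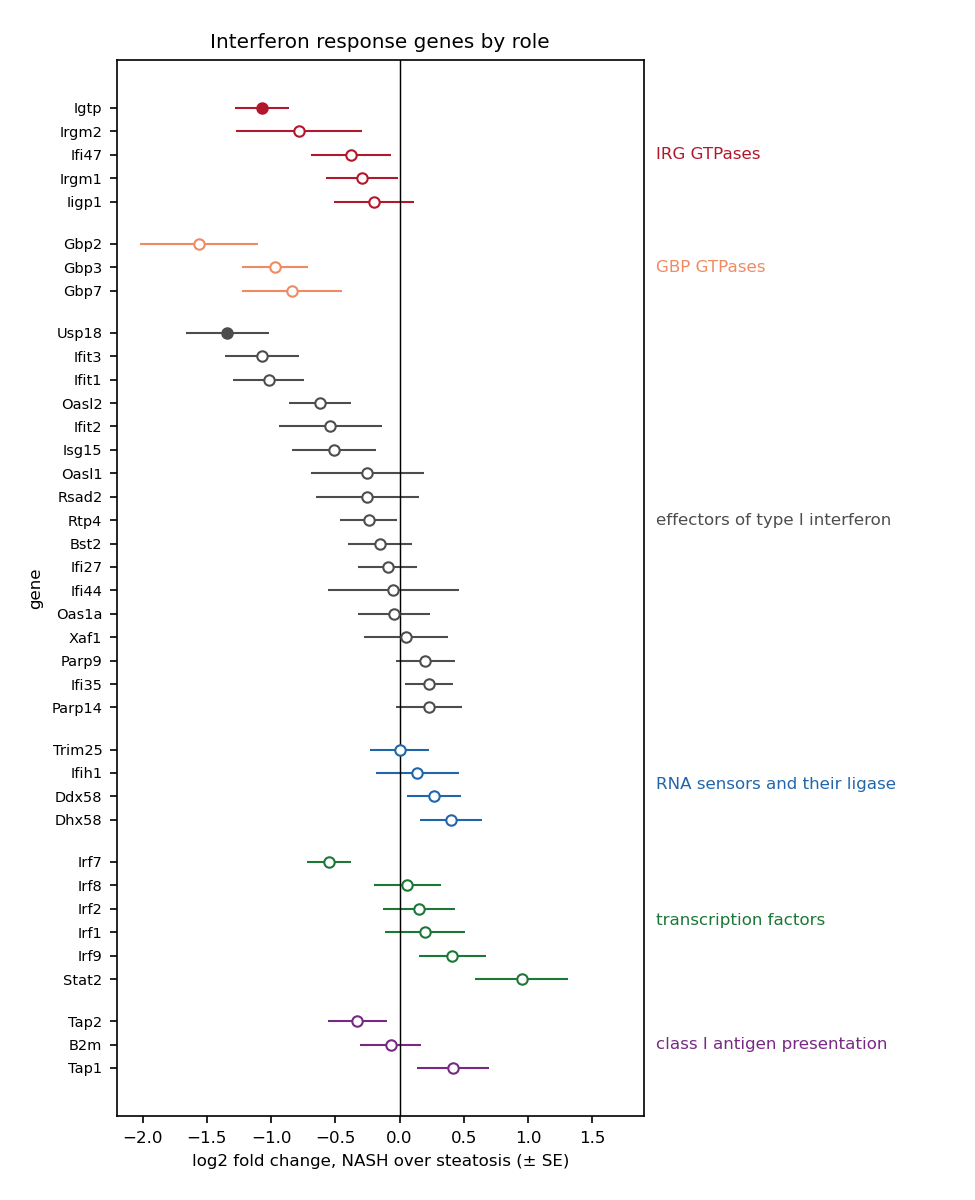
Log2 fold change of NASH over steatosis (x axis, bars ± SE) for the 38 genes with a row, grouped by role. Filled points passed edgeR's test (Igtp and Usp18), open points did not, and the 8 GTPases at the top all lie left of 0.

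Igtp is a regulator among the IRG proteins, which act on the vacuoles that hold intracellular pathogens. It stood at 6.84, 8.87 and 9.91 CPM in steatosis 1 to 3 and at 4.10, 3.82 and 4.36 CPM in NASH 1 to 3. The groups did not overlap, and the NASH libraries lay within a narrow band, though on only 59, 57 and 48 counts. Its mean was 8.54 ± 1.56 CPM in steatosis and 4.09 ± 0.271 CPM in NASH (SD, n = 3 each). Igtp fell by 1.07 on the log2 scale, with an SE of 0.21 and an adjusted p of 0.0221 by edgeR. This call did not hold without steatosis 2 (edgeR adjusted p = 0.0841), steatosis 3 (0.0556), NASH 1 (0.0633), NASH 2 (0.0745) or NASH 3 (0.0551), with log2 fold changes of -1.10 to -0.92. It held without steatosis 1 (-1.19, edgeR adjusted p = 0.0378). In the fits with 1 library left out, 0.656% to 2.6% of all tested genes were called lower, against 3.33% with all libraries.

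Irgm2, whose promoter element is shown above beside that of Igtp, gave a different picture by library. Its values were 2.71, 2.52 and 8.09 CPM in steatosis and 2.43, 1.47 and 4.18 CPM in NASH, with steatosis 3 far above the others. The groups overlapped, and an adjusted p of 0.376 by edgeR went with a log2 fold change of -0.78 ± 0.49 (SE), which became 0.04 without steatosis 3. Igtp and Irgm2 overlap as annotated on chromosome 11, where most of the Igtp span lies inside that of Irgm2 (58199556 to 58207591 and 58199618 to 58222782, GRCm38, plus strand) and share 162 exon bases in the annotation, so reads there could have been split or dropped in counting. Irgm1, a regulator of the same class, had 6.78, 9.05 and 13.7 CPM in steatosis and 8.20, 6.09 and 9.99 CPM in NASH, which overlapped (edgeR adjusted p = 0.574, log2 fold change -0.29, or 0.05 without steatosis 3).

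The effector IRG genes are Iigp1 and Ifi47. Iigp1 had the highest CPM of the class. It stood at 55.6, 69.2 and 70.1 CPM in steatosis and 68.9, 30.9 and 70.3 CPM in NASH, so NASH 1 lay within the steatosis range, NASH 3 just above it and NASH 2 below it. It did not pass (edgeR adjusted p = 0.748), at a log2 fold change of -0.20 ± 0.31 (SE) that became 0.12 without NASH 2. Ifi47 stood at -0.38 ± 0.31 (log2 fold change ± SE, adjusted p = 0.501 by edgeR), with groups that overlapped, and at -0.04 without steatosis 3 and -0.17 without NASH 2.

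The GBP proteins assemble on membranes of pathogen vacuoles and on bacteria. None of the 3 measured GBP genes passed the test, but their log2 fold changes were the lowest as a class, with a median of -0.97. Gbp3 stood at 3.76, 5.15 and 5.38 CPM in steatosis and at 2.43, 1.94 and 3 CPM in NASH, without overlap (edgeR adjusted p = 0.0564 for a log2 fold change of -0.97, SE 0.26). Gbp2 stood at 0.862, 1.14 and 0.89 CPM in steatosis and at 0.486, 0.268 and 0.182 CPM in NASH, also without overlap (edgeR adjusted p = 0.0775 for a log2 fold change of -1.56, SE 0.46). It rested on 57 counts in all of steatosis and 13 in all of NASH, so its fold change is imprecise. Gbp7 had 3.88, 5.81 and 3.19 CPM in steatosis and 3.20, 1 and 3 CPM in NASH, where NASH 1 reached the steatosis range (edgeR adjusted p = 0.23, log2 fold change -0.84, or -0.44 without NASH 2). Summed over the 3 genes, the GBP level was 8.50 to 12.1 CPM in steatosis and 3.21 to 6.17 CPM in NASH.

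**Figure D3:**
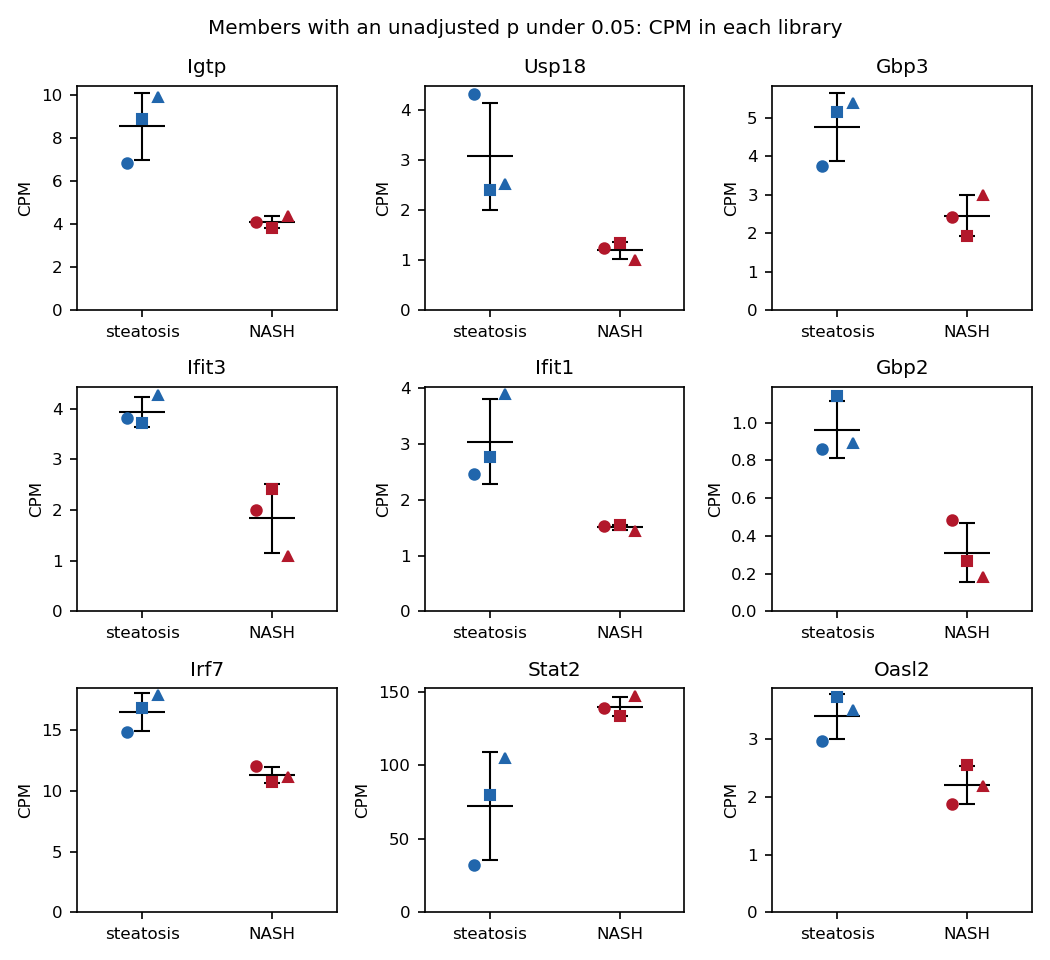
CPM in each library (y axis, from 0) for the 9 genes with an unadjusted p under 0.05; circle, square and triangle mark libraries 1, 2 and 3, and the black lines give the mean and SD of 3 libraries. No gene shows overlap, Stat2 is the single gene with higher values in NASH, and steatosis 1 stands apart for Usp18 and Stat2.

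Among the effectors of type I interferon, Usp18 was the gene that passed. Usp18 removes the ubiquitin-like protein Isg15 from its targets and blocks signalling at the type I receptor. Its values were 4.31, 2.40 and 2.52 CPM in steatosis and 1.25, 1.34 and 0.999 CPM in NASH, without overlap, with steatosis 1 above the other libraries. The means were 3.08 ± 1.07 CPM in steatosis and 1.20 ± 0.177 CPM in NASH (SD, n = 3 each). Usp18 fell by 1.34 on the log2 scale, with an SE of 0.32 and an adjusted p of 0.0455 by edgeR. It rested on 178 counts in all of steatosis and 49 in all of NASH. Leaving out any single library ended this call, at adjusted p-values from edgeR of 0.162, 0.0842 and 0.0534 for steatosis libraries 1 to 3 left out and 0.106, 0.102 and 0.109 for NASH libraries 1 to 3. Without steatosis 1 the log2 fold change was -1.01. The fits with 1 library left out called fewer of all tested genes lower too (0.656% to 2.6%, against 3.33%).

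Ifit1, Ifit2 and Ifit3 encode tetratricopeptide proteins that bind viral RNA or partner with those that do, and their genes lie together on chromosome 19. Ifit3, with 2 ISRE cores in its window above, stood at 3.82, 3.72 and 4.27 CPM in steatosis and 2.01, 2.41 and 1.09 CPM in NASH (edgeR adjusted p = 0.0606 for a log2 fold change of -1.07, SE 0.29). Ifit1 stood at 2.46, 2.76 and 3.90 CPM in steatosis and 1.53, 1.54 and 1.45 CPM in NASH (edgeR adjusted p = 0.0636 for a log2 fold change of -1.02, SE 0.28). For both genes the groups did not overlap, and neither passed. Ifit3 passed in DESeq2 (log2 fold change -1.07, adjusted p = 0.0468). Ifit2 did not pass (adjusted p = 0.456 by edgeR) at a log2 fold change of -0.54 and under 1 CPM.

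Oasl2, of the oligoadenylate synthetase family, had 2.96, 3.72 and 3.49 CPM in steatosis and 1.88, 2.54 and 2.18 CPM in NASH, without overlap (edgeR adjusted p = 0.157 for a log2 fold change of -0.62, SE 0.24). Its relatives Oas1a and Oasl1 had log2 fold changes of -0.04 and -0.25. Oas1a, which makes the second messenger that activates RNase L, ranged from 1.46 to 1.68 CPM over all libraries. Isg15 had 1.48, 3 and 2.93 CPM in steatosis and 1.60, 1.61 and 2.09 CPM in NASH, where steatosis 1 lay below every NASH library (edgeR adjusted p = 0.386, log2 fold change -0.51, or -0.33 without steatosis 3).

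The other effectors lay nearer to 0. Ifi27, an interferon-inducible membrane protein and the effector with the highest CPM, stood at 15.8, 14.9 and 22.4 CPM in steatosis and 14.1, 15.1 and 20.7 CPM in NASH, the same range. Bst2, which tethers budding virus to the cell, stood at 11.8, 14.4 and 17.4 CPM in steatosis and 16.3, 8.64 and 14.4 CPM in NASH, which overlapped as well. Rsad2, Rtp4 and Ifi44 had log2 fold changes of -0.25, -0.24 and -0.05. Xaf1, Parp9, Ifi35 and Parp14 were the 4 effectors with positive values, from 0.05 to 0.23, none of which passed. Parp9 shares 458 exon bases with Dtx3l on the opposite strand.

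RNA sensors start interferon production. Ddx58 (RIG-I), Ifih1 (MDA5) and Dhx58 (LGP2) are helicases that bind viral RNA, and Trim25 is a ubiquitin ligase that acts on RIG-I. None passed, and the groups overlapped for all 4. Dhx58 had the smallest p, with 2.71, 4.20 and 3.86 CPM in steatosis and 3.89, 5.29 and 5.08 CPM in NASH (edgeR adjusted p = 0.357 for a log2 fold change of 0.40, SE 0.24, which was 0.25 without steatosis 1). Trim25 stood at 12.1, 14.7 and 12.5 CPM in steatosis and at 10.3, 17.7 and 11.3 CPM in NASH, with NASH 2 the highest. For Ddx58 and Ifih1 the log2 fold changes were 0.27 and 0.14.

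The 6 transcription factors held values on both sides of 0, and none passed. Irf7, which amplifies type I interferon production, stood at 14.8, 16.8 and 17.9 CPM in steatosis and 12, 10.7 and 11.1 CPM in NASH, without overlap (edgeR adjusted p = 0.0925 for a log2 fold change of -0.55, SE 0.17). Stat2, the subunit of the ISRE-binding complex that gives it a transactivation domain, went the other way. It had 32.5, 80 and 105 CPM in steatosis and 139, 134 and 147 CPM in NASH (edgeR adjusted p = 0.151 for a log2 fold change of 0.95, SE 0.36). The NASH libraries were close together above a spread-out steatosis group, and the log2 fold change was 0.61 without steatosis 1 and 1.34 without steatosis 3. Stat2 was called in the fit with no filter on low counts (edgeR adjusted p = 0.0194) and in no other.

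Irf9, which binds DNA in the same complex, had 7.64, 9.05 and 15.5 CPM in steatosis and 12.4, 15.9 and 14.6 CPM in NASH, which overlapped through steatosis 3 (edgeR adjusted p = 0.389, log2 fold change 0.41). Its log2 fold change was 0.23 without steatosis 1 and 0.80 without steatosis 3 (adjusted p = 0.0757 by edgeR). Irf1, Irf2 and Irf8 had log2 fold changes of 0.20, 0.15 and 0.06 with adjusted p-values of 0.75 or more by edgeR. Per kilobase of exon, B2m had the highest mean level of the 38 genes over all libraries, at 939 CPM per kilobase. Stat2 and Bst2 followed in an order that differed by group, at 12.2 and 16.1 CPM per kilobase in steatosis and 23.6 and 14.5 in NASH. Irf7 shares 45 exon bases with Phrf1 on the opposite strand, and Irf9 shares 123 with Rnf31 on the same strand.

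None of the 3 genes of class I antigen presentation passed. B2m, the light chain of class I molecules, had 900, 828 and 753 CPM in steatosis and 734, 773 and 859 CPM in NASH, overlapping, at an adjusted p of 0.897 by edgeR and -0.07 ± 0.24 for the log2 fold change and its SE. Tap1 and Tap2 form the transporter that carries peptides into the endoplasmic reticulum, and they lay on opposite sides of 0. Tap1 had 6.16, 12.4 and 12.9 CPM in steatosis and 15.6, 10.9 and 15.8 CPM in NASH (edgeR adjusted p = 0.411, log2 fold change 0.42, or 0.17 without steatosis 1), with steatosis 1 the lowest. It shares 212 exon bases with Psmb9 on the opposite strand. Tap2 did not pass either (edgeR adjusted p = 0.446), at -0.33.

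**Figure D4:**
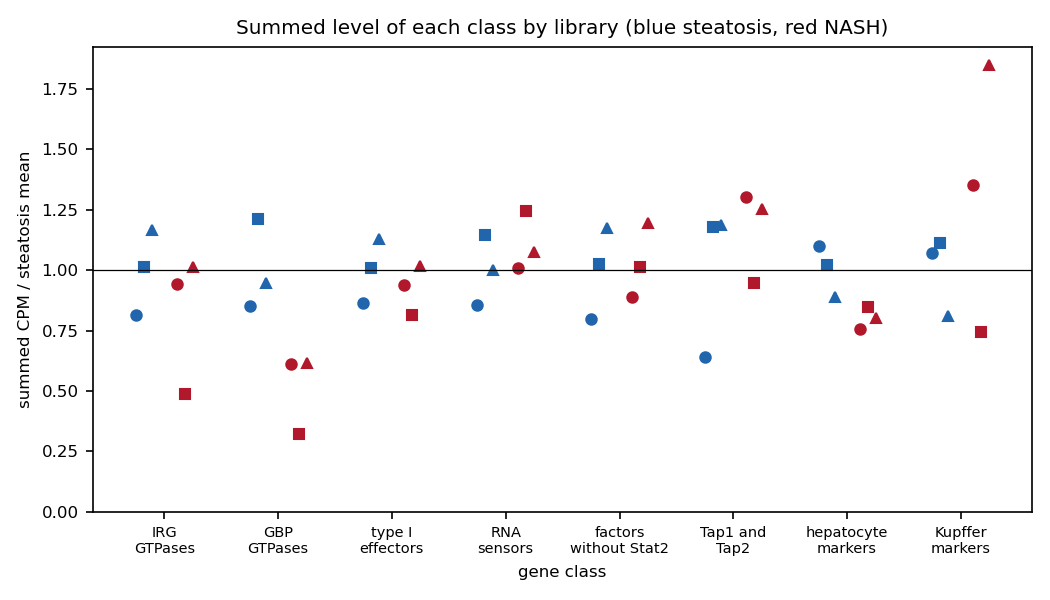
Summed CPM of each class in each library divided by the steatosis mean (y axis, from 0); blue is steatosis, red NASH, and circle, square and triangle are libraries 1, 2 and 3. The GBP genes and the hepatocyte markers are the classes shown whose NASH values all lie below steatosis. NASH 2 (red square) is the lowest library for both GTPase classes, the effectors of type I interferon and the Kupffer sum, though not for every Kupffer marker.

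Summed levels of the classes put the single genes in context. The IRG genes summed to 75.0, 93.2 and 107 CPM in steatosis and 86.6, 44.7 and 93.2 CPM in NASH, overlapping apart from NASH 2, and most of this was Iigp1. The effectors of type I interferon summed to 88.5 ± 11.8 CPM in steatosis and 81.7 ± 9 CPM in NASH (SD, n = 3 each). The factors other than Stat2 summed to 56.8 ± 10.8 and 58.6 ± 8.82 CPM (SD, n = 3 each). Markers of other cells were summed beside them. The 6 Kupffer cell markers summed to 31.6, 32.8 and 23.9 CPM in steatosis and 39.9, 21.9 and 54.5 CPM in NASH. NASH 2 had the lowest Kupffer sum, and Clec4f was the largest part of it (11.5 CPM). NASH 2 was also the lowest library for both GTPase classes, the effectors of type I interferon (72.1 CPM) and the T and NK cell markers (0.536 CPM). Clec4f and Timd4 were lowest in NASH 2, Cd5l and Marco in steatosis 3, Adgre1 in steatosis 1 and Vsig4 in steatosis 2. Vsig4 was higher in every NASH library than in every steatosis library. The 6 dendritic cell markers ranged from 3.72 to 5.12 CPM in steatosis and 4.79 to 6.17 CPM in NASH, and the 5 sinusoidal endothelial markers from 26.7 to 37.0 and from 31.5 to 50.9 CPM. The 4 B cell markers ranged from 0.631 to 1.92 and from 0.454 to 2.15 CPM, and the 4 neutrophil markers from 1.62 to 3.67 and from 1.88 to 4.99 CPM. The part of these cells in the results was not tested.

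Other genes of the pathway, 96 in all, were read from the same fit. A row was found for 94 and 75 were tested, of which 0 rose and 0 fell by edgeR's test (1.49% and 3.33% of all tested genes did). At an unadjusted p under 0.05 there were 10 higher and 3 lower, against 10.2% and 12.9% of all tested genes, and their median log2 fold change was 0.03. DESeq2 called 2 (Tyk2 and Mx2) and limma-voom 1 (Tyk2), all higher, beside 2.64% and 1.4% of all genes given an adjusted p. The ligand genes Ifng, Ifnb1, Ifna4 and Ifnl3 were below the filter, with 3 counts or fewer each over all libraries.

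Of the receptor chains for type I interferon, Ifnar1 had 12.2, 10.3 and 10.6 CPM in steatosis and 15.6, 15.6 and 14.3 CPM in NASH, without overlap (edgeR adjusted p = 0.145 for a log2 fold change of 0.46, SE 0.17). Ifnar2 stood at 0.15, and the interferon gamma receptor chains Ifngr1 and Ifngr2 at 0.02 and -0.10. Tyk2, the kinase bound to Ifnar1, came nearest to the threshold, with 11.2, 12 and 15 CPM in steatosis and 22.7, 19.4 and 22 CPM in NASH (edgeR adjusted p = 0.051 for a log2 fold change of 0.75, SE 0.19). Jak1 and Jak2 had log2 fold changes of 0.35 and 0.03.

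The other pathway genes with the smallest p pointed both ways, and none passed. Ikbke, a kinase that activates interferon regulatory factors, had 11.7, 20 and 25.2 CPM in steatosis and 32.9, 27.8 and 42.1 CPM in NASH (edgeR adjusted p = 0.107, log2 fold change 0.85). Mx2, of the dynamin-like GTPase family but annotated as a polymorphic pseudogene, stood at 1.12 on the log2 scale (adjusted p = 0.0928 by edgeR). The exonuclease Isg20 stood at 0.87 (0.109). Ptpn2, a phosphatase that acts on Jak1, stood at 0.58 (0.0952). The immunoproteasome subunit Psmb10 stood at -0.65 (0.101), with 13.7, 17.8 and 12.7 CPM in steatosis and 9.03, 8.04 and 11.2 CPM in NASH. Socs1, which inhibits Janus kinases, was below the filter, with 23 counts in all of steatosis and 40 in all of NASH, of which NASH 3 held 31.

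**Figure D5:**
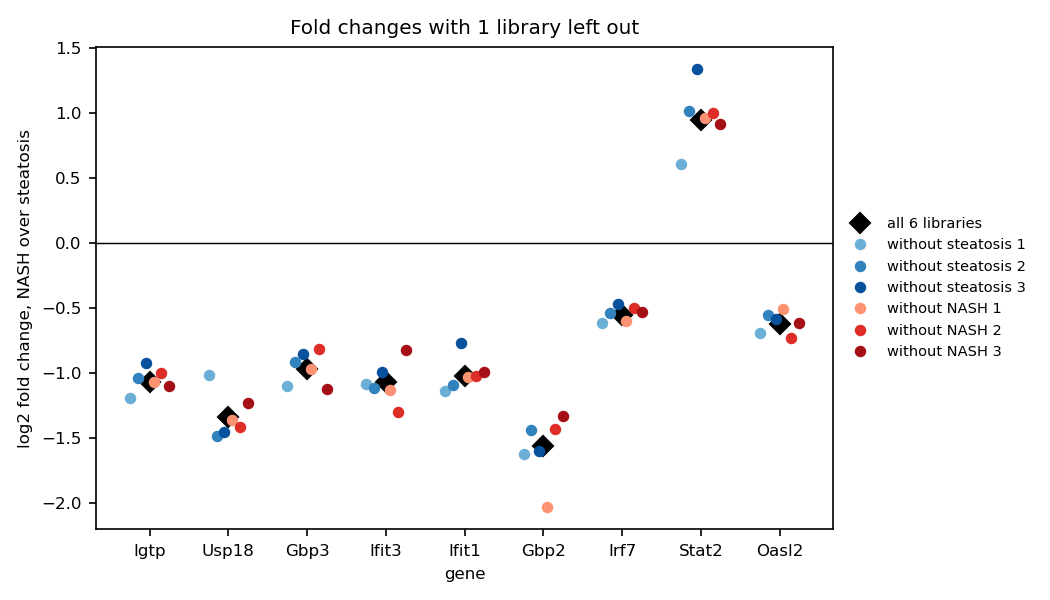
Log2 fold change of NASH over steatosis (y axis) for the 9 genes with an unadjusted p under 0.05, from all 6 libraries (black diamonds) and with 1 library left out (blue for a steatosis library, red for a NASH library). No point crosses 0, which follows from groups that do not overlap in any of the 9 genes. Usp18 is least negative (-1.01) and Stat2 lowest (0.61) without steatosis 1.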

How the data were processed

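Per the submitters' processing notes, the reads were processed with TopHat2 and HTSeq on mm10 (GRCm38), without versions. The annotation release, strand setting and treatment of shared reads were not given in the sources used here. Per the labels, libraries came from polyadenylated RNA read as pairs of 150 bp. Each library has its own deposited file of counts, raw and by Ensembl gene, which the authors had not normalized.

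Symbols came from the gene name table, and exon lengths and positions from GENCODE M21. Among the 38 genes with a row, 17 share exon bases with another annotated gene, and for 6 of these that gene has over 100 counts.

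Counts were analysed in R 4.3.3 with edgeR 4.0.16: default filter on low counts, TMM factors, quasi-likelihood test of NASH against steatosis over 11375 genes, Benjamini-Hochberg adjustment, threshold 0.05. Each SE is the size of the log2 fold change divided by the square root of F. No set test was run. The test was checked on simulated counts. Alternatives were DESeq2 1.42.0, limma-voom (limma 3.58.1), other scalings and filters, a replicate block and left-out libraries.

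The members, gene lists and rules were chosen with earlier results of these data known. Values by library are given for genes with an unadjusted p under 0.05, for the 3 most abundant per exon length, and for the smallest p and highest CPM of each class. Of the pathway genes, the 6 with the smallest p and those of a fixed list are named, except for an item that is not reported here. Other genes given by library, and the promoters of Gbp3 and Stat2, were chosen after their values were seen.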

Additional observations from a re-analysis of the deposited data

How the results depend on the processing

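Depth outside mitochondrial genes limits the precision, and genes under 1 CPM, such as Gbp2 and Ifit2, rest on few counts. The median log2 fold change of the 38 genes was -0.17 and stayed between -0.25 and -0.03 over 15 alternatives. The number of members called lower, 2 with all libraries, was 1 with limma-voom, 0 when libraries were scaled to the counts of other genes (1.95% of all tested genes were lower there), 7 of 38 with no filter (18.4%, against 4.61% of 19803 tested genes) and 7 at an adjusted p under 0.1 (18.4%, against 6.89%). It was 0 to 1 with 1 library left out, where 0.656% to 2.6% of all tested genes were lower, against 3.33% with all libraries. It was 0 when steatosis 2 and NASH 3, rich in rRNA-like reads, were both omitted (0.163% of all tested genes were lower there). With no filter 1 member, Stat2, was called higher, beside 2.7% of all tested genes. The scaling to other genes moved the median of all genes from 0.01 to 0.12. There Igtp stood at -0.97 (edgeR adjusted p = 0.0509) and Usp18 at -1.21 (0.0636). The cause was not tested. The 0 pathway genes called higher became 2 with DESeq2, 3 with no filter and 3 at an adjusted p under 0.1. Of all genes in those settings, 2.64%, 2.7% and 3.91% were called higher. The count was 1 with limma-voom, DESeq2's size factors, upper-quartile factors, the stricter filter or the replicate block (1.35% to 1.71% of all genes). With 1 library left out it was 0 to 2 (0.248% to 1.48% of all genes). The 0 called lower became 2 with no filter (4.61% of all genes).

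Same-numbered libraries did not deviate together (correlations across tested genes of 0.03, -0.01 and 0.07). No pairing by number was seen, but a check over all tested genes could not exclude one that affects few genes. With the replicate block 1 member, Igtp, was called lower (2.63% of members, against 2.75% of all tested genes). Usp18 stood at -1.32 there (edgeR adjusted p = 0.056).

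Of 38 members, 23 kept their sign throughout. Signs turned for Ifi44 and Oas1a (both 0.07) and B2m (0.05) when scaled to other genes, for Ifi44 (0.07) and Irf2 (-0.26) without steatosis 2 and NASH 3, and for Trim25 (-0.03) with limma-voom, no filter or the replicate block. With 1 library left out, log2 fold changes ran from -0.49 to 0.05 for Irgm1, -1.21 to 0.04 for Irgm2, -0.37 to 0.12 for Iigp1, -0.27 to 0.14 for Ifi27, -0.63 to 0.22 for Ifi44, -0.1 to 0.43 for Irf1, -0.26 to 0.37 for Irf2, -0.07 to 0.27 for Irf8, -0.07 to 0 for Oas1a, -0.7 to 0.14 for Oasl1, -0.15 to 0.45 for Ifih1, -0.34 to 0.1 for Bst2, -0.25 to 0.35 for Xaf1, -0.13 to 0.01 for B2m and -0.27 to 0.15 for Trim25.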

Other observations

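Chemokines of the pathway and a neighbour of Gbp6, chosen after their values were seen, did not go one way. Cxcl10, a chemokine that interferon gamma induces and that draws T cells, was below the filter, its steatosis libraries holding 7, 21 and 25 counts and its NASH libraries 2, 5 and 1. Cxcl9, its close relative, had 1.17, 4.49 and 2.08 CPM in steatosis and 1.81, 1.07 and 0.726 CPM in NASH, where NASH 1 lay within the steatosis range (edgeR adjusted p = 0.231 for a log2 fold change of -1.07, SE 0.50). Cxcl11, of the same family, is annotated as a polymorphic pseudogene. It had 2.22, 3.48 and 3.9 CPM in steatosis and 4.38, 5.83 and 4.36 CPM in NASH, with every NASH library above steatosis (edgeR adjusted p = 0.205 for a log2 fold change of 0.59, SE 0.26). Ccl5 stood at 0.11 on the log2 scale. The predicted gene Gm43302 shares 1726 exon bases with Gbp6 in the annotation. It also shares 1792 with Gbp10, which is not a member and has no row either. Gm43302 had 3.57, 8.81 and 6.97 CPM in steatosis and 3.82, 2.21 and 3.27 CPM in NASH. Its groups overlapped through steatosis 1 (edgeR adjusted p = 0.0947 for a log2 fold change of -1.06, SE 0.34).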
